A study of Mus musculus with 3 samples.

Results

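The genes of the cornified envelope and of the S100 fused-type proteins numbered 45 of the 31053 genes counted in mouse ear skin. They were taken by symbol: every gene starting with Lce or Sprr, together with Lor, Ivl, Flg, Flg2, Hrnr, Rptn, Tchh, Tchhl1 and Crnn. This gave 14 Lce1 genes, 6 Lce3 genes, Lce6a, 2 Sprr1 genes, 11 Sprr2 genes, Sprr3, Sprr4, Lor, Ivl and 7 fused S100 genes. All 45 lie on chromosome 3 between positions 92080271 and 93471980 of GRCm38 (GENCODE M21), in the epidermal differentiation complex, a stretch of 1.39 Mb in which 45 of 56 protein-coding genes are members.

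The series holds 3 single-cell libraries, 1 for each condition, all from untreated ears. They are Langerin-DTA mice at 8 weeks (4 males and 6 females), C57BL/6J wild-type (WT) mice at 8 weeks (6 males and 4 females) and C57BL/6J WT mice at 4 weeks (5 males and 3 females), called adult Langerin-DTA, adult WT and young WT here. Langerin-DTA mice make diphtheria toxin subunit A under the promoter of human langerin, and so lose their Langerhans cells. The protocol in the labels describes WT controls of Langerin-DTA mice as littermates, without saying so of this adult WT library by name. For each library a sort on CD45, CD31 and podoplanin split the cells of the pooled mice into lymphatic endothelium, blood endothelium, CD45+ cells and cells negative for both CD45 and CD31, which were mixed at equal shares, so the share of keratinocytes in a library was set by the sort. Cd207, the gene of langerin, was present at 5 or more unique molecular identifiers (UMIs, counted RNA molecules) in 6 cells of adult Langerin-DTA, 449 cells of adult WT and 608 cells of young WT.

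Keratinocytes end their life in the skin as flat, dead cells wrapped in the cornified envelope, a shell of protein that transglutaminases cross-link under the cell membrane. Involucrin (Ivl) is laid down early, loricrin (Lor) becomes the main protein of the shell, and small proline-rich (Sprr) and late cornified envelope (Lce) proteins bridge and fill it. The fused S100 proteins carry an S100 calcium-binding head and long repeats: filaggrin (Flg) and its relatives Flg2 and Hrnr bundle keratin and feed the moisture of the outer layer, whereas trichohyalin (Tchh) hardens the inner root sheath of the hair.

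Values are UMIs per 1000000 UMIs (CPM) summed over the cells of a gate, with exact 95% Poisson intervals that cover counting error only. Cells were gated on raw UMIs after keeping barcodes with at least 500 genes, 1000 UMIs and at most 10% mitochondrial UMIs, which left 12941 in adult Langerin-DTA, 12621 in adult WT and 12399 in young WT. The Krt1/Krt10 gate, for the layers above the basal one, asks for Krt1 and Krt10 at 0.5% of a cell's UMIs or more and held 552 cells of adult Langerin-DTA, 441 of adult WT and 252 of young WT. The Krt79/Krt17 gate, at 0.1% or more, held 155 cells of adult Langerin-DTA, 139 of adult WT and 82 of young WT; Krt79 marks the upper hair follicle and its canal. The Krt5/Krt14 gate, for basal cells, asks for 0.3% or more with Krt1 and Krt10 under 0.2%, and held 2385 cells of adult Langerin-DTA, 2214 of adult WT and 1135 of young WT. Cells with 2 or more UMIs of Prox1, a lymphatic endothelial factor, gave the level of free RNA; they numbered 2367 (Langerin-DTA), 1563 (adult WT) and 4072 (young WT).

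The gates were read against marker genes outside the gating rule. Sbsn, a protein of the layers above the basal one, was at 1703 CPM in adult Langerin-DTA, 1186 CPM in adult WT and 813 CPM in young WT in the Krt1/Krt10 gate, against 29.9 (Langerin-DTA), 39.0 (adult WT) and 32.0 CPM (young WT) in the Krt5/Krt14 gate. In the Krt79/Krt17 gate Sbsn was at 981 (Langerin-DTA), 1273 (adult WT) and 759 CPM (young WT). Sbsn thus sets both gates apart from the Krt5/Krt14 gate, but not clearly from each other. Other markers of these layers differed. Krtdap was at 7655 (Langerin-DTA), 6854 (adult WT) and 3920 CPM (young WT) in the Krt1/Krt10 gate. In the Krt79/Krt17 gate Krtdap was at 1730 (Langerin-DTA), 1857 (adult WT) and 992 CPM (young WT). Dsg1a and Dmkn were also higher in the Krt1/Krt10 gate in each library, whereas Dsc1 was higher in the Krt79/Krt17 gate in each. Cst6, a protease inhibitor of the upper follicle, was at 7469 CPM in adult Langerin-DTA, 11200 CPM in adult WT and 11212 CPM in young WT in the Krt79/Krt17 gate, against 7.52 (Langerin-DTA), 13.7 (adult WT) and 7.26 CPM (young WT) in the Krt5/Krt14 gate. These levels were taken over cells in exactly 1 of the keratinocyte gates. The Krt79/Krt17 gate also carried RNA of 6 sebaceous gland markers, among them the lipid enzymes Scd1 and Elovl6: they summed to 4751 CPM in adult Langerin-DTA, 2630 CPM in adult WT and 3968 CPM in young WT there, against 261 (Langerin-DTA), 222 (adult WT) and 247 CPM (young WT) in the Krt5/Krt14 gate. The part of sebaceous cells in the member levels was not tested, and sebaceous RNA was highest in adult Langerin-DTA. Cells with 2 or more UMIs summed over Ptprc, Pecam1, Prox1, Cdh5, Col1a1 and Col1a2 made up 5.76% to 12.2% of each keratinocyte gate. These are genes of immune, endothelial and fibroblast cells, and cartilage and pigment cell genes were not part of this count.

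Member RNA was a small part of every gate. Summed over the 45 genes, the Krt79/Krt17 gate held 1099 CPM in adult Langerin-DTA, 1132 CPM in adult WT and 778 CPM in young WT. The Krt1/Krt10 gate held 314 CPM in adult Langerin-DTA, 114 CPM in adult WT and 75.4 CPM in young WT. The Krt5/Krt14 gate held 87.3 CPM in adult Langerin-DTA, 64.1 CPM in adult WT and 35.4 CPM in young WT. In each library the Krt79/Krt17 gate was the highest and the Krt5/Krt14 gate the lowest, also over cells in exactly 1 keratinocyte gate, where the Krt79/Krt17 cells (58 of adult Langerin-DTA, 60 of adult WT and 30 of young WT) held 747 (Langerin-DTA), 1701 (adult WT) and 1144 CPM (young WT) and the Krt5/Krt14 cells 44.2 (Langerin-DTA), 41.4 (adult WT) and 25.7 CPM (young WT). Prox1 cells held 9.52 CPM in adult Langerin-DTA, 3.06 CPM in adult WT and 3.85 CPM in young WT, below every keratinocyte gate of the same library. Of these UMIs 102 of 238 in adult Langerin-DTA and 96 of 141 in young WT lay in 1 barcode each. Some Prox1 cells also pass a keratinocyte gate. Without them the level was 3.93 (Langerin-DTA), 1.42 (adult WT) and 0.841 CPM (young WT).

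A member UMI was seen in 51.6% of Krt79/Krt17 cells of adult Langerin-DTA, 59.0% in adult WT and 47.6% in young WT, and in 34.6% (Langerin-DTA), 33.8% (adult WT) and 38.1% (young WT) of Krt1/Krt10 cells. It was seen in 26.1% (Langerin-DTA), 29.4% (adult WT) and 27.2% (young WT) of Krt5/Krt14 cells and in 3.59% (Langerin-DTA), 1.54% (adult WT) and 0.860% (young WT) of Prox1 cells. Shares of cells depend on depth. With each cell thinned to 2000 UMIs they were 26.1% (Langerin-DTA), 38.0% (adult WT) and 25.6% (young WT) of Krt79/Krt17 cells and 9.80% (Langerin-DTA), 11.1% (adult WT) and 7.94% (young WT) of Krt1/Krt10 cells. They were 8.35% (Langerin-DTA), 6.73% (adult WT) and 4.93% (young WT) of Krt5/Krt14 cells and 0.734% (Langerin-DTA), 0.681% (adult WT) and 0.202% (young WT) of Prox1 cells. The order of the gates was the same with and without thinning.

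Of the 45 genes, 13 reached 20 UMIs in a keratinocyte gate over the 3 libraries: Sprr1a, Sprr1b, Sprr2a3, Sprr2h, Ivl, Lor, Lce3c, Lce6a, Flg, Flg2, Hrnr, Rptn and Tchh. Another 22 had between 1 and 15 UMIs in their highest gate, among them Sprr4, Sprr2k, Crnn and most Lce1 genes. The remaining 10 had none in any keratinocyte gate, and 6 of these (Lce3a, Lce3b, Lce3d, Lce3f, Sprr2i and Tchhl1) had none in any kept barcode of the 3 libraries.

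**Figure D1:**
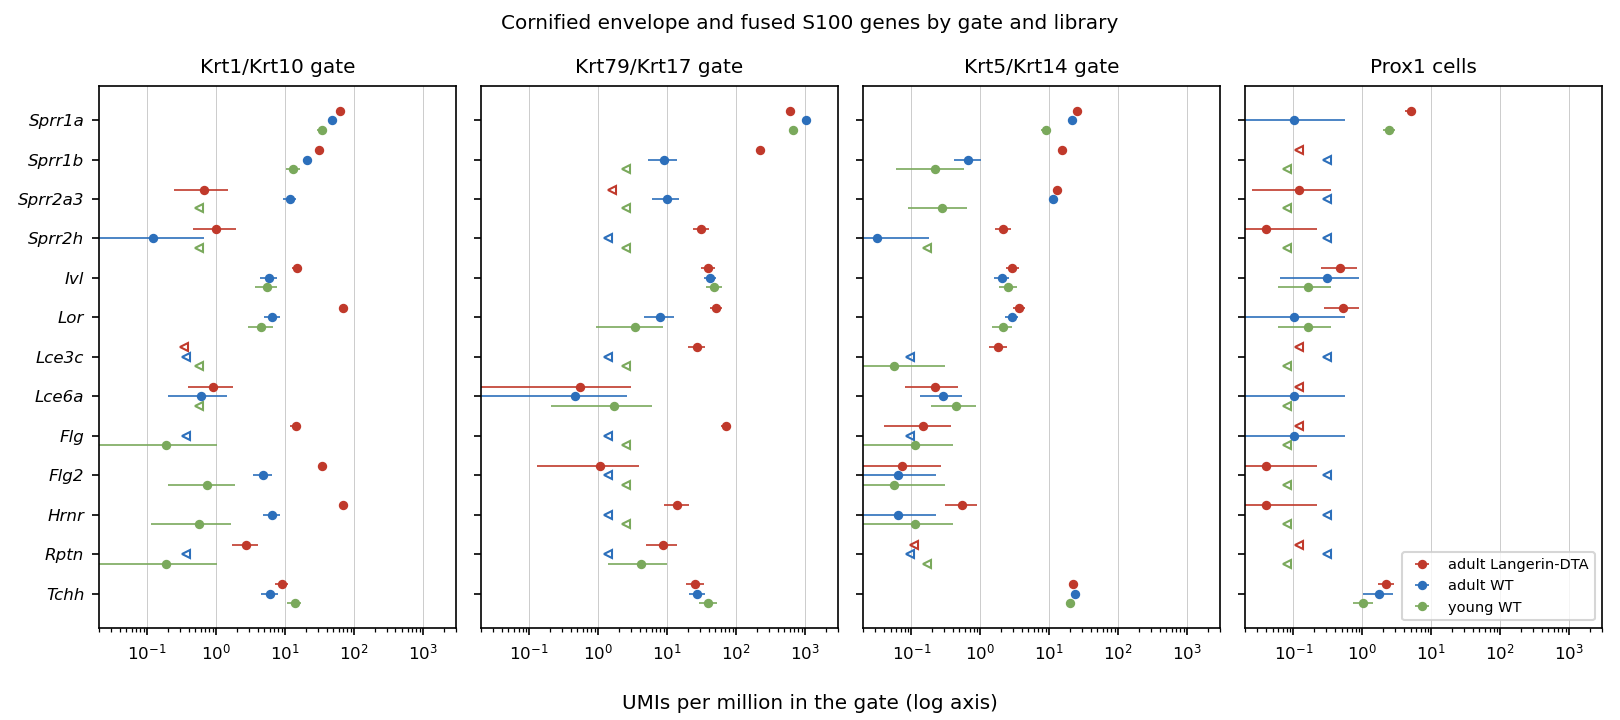
Level of the 13 members with 20 or more UMIs in a gate, as CPM on a log axis, in each gate (panels) and library (colours). Points carry exact 95% Poisson bars, and open triangles mark the limit that 0 UMIs allow. Sprr1a reaches 601 to 1030 CPM in the Krt79/Krt17 gate, and Tchh lies between 19.9 and 23.9 CPM in the Krt5/Krt14 gate.

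Sprr1a and Sprr1b encode close relatives that are joined to other envelope proteins by transglutaminase. Sprr1a was the most abundant member in the Krt79/Krt17 gate, at 601 CPM (566 to 637) in adult Langerin-DTA, 1030 CPM (988 to 1074) in adult WT and 677 CPM (631 to 726) in young WT. Of the cells of this gate 45 (Langerin-DTA), 42 (adult WT) and 21 (young WT) held Krt17 without Krt79. In adult Langerin-DTA 328 of the 1119 Sprr1a UMIs came from 1 such barcode. Sprr1a had a UMI in 44 (Langerin-DTA), 54 (adult WT) and 25 (young WT) cells of the gate. In the Krt1/Krt10 gate it was at 63.3 CPM in adult Langerin-DTA, 48.0 CPM in adult WT and 34.0 CPM in young WT, and in the Krt5/Krt14 gate at 25.1 (Langerin-DTA), 21.7 (adult WT) and 8.88 CPM (young WT). Most of the last came from cells that also pass the Krt79/Krt17 gate: cells of the Krt5/Krt14 gate alone had 1.94 (Langerin-DTA), 0.959 (adult WT) and 1.10 CPM (young WT). All 3 libraries thus placed it highest in the same gate, and no library of another gate overlapped with it.

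Sprr1b was laid out differently. It was at 31.6 CPM in adult Langerin-DTA, 21.1 CPM in adult WT and 13.1 CPM in young WT in the Krt1/Krt10 gate, in 28 (Langerin-DTA), 35 (adult WT) and 7 (young WT) cells. In the Krt79/Krt17 gate it was at 226 CPM in adult Langerin-DTA, but 412 of those 420 UMIs came from 1 barcode; in adult WT all 19 UMIs came from 1 cell, and in young WT it had 0 UMIs, which allows up to 2.53 CPM. Among cells with both Krt79 and Krt17, which numbered 66 in adult Langerin-DTA, 71 in adult WT and 37 in young WT, Sprr1a was at 960 (Langerin-DTA), 1761 (adult WT) and 1278 CPM (young WT) and was seen in 35 (Langerin-DTA), 43 (adult WT) and 23 (young WT) cells. Sprr1b had 0 UMIs in these same cells in each library, which allows up to 3.73 CPM in adult Langerin-DTA, 2.59 CPM in adult WT and 4.79 CPM in young WT.

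The stretches of 120 bases before the gene starts are shown for Sprr1a and Sprr1b, whose levels part between gates, for Ivl and Lor, which were called in both, and for Sprr3, which was seen outside the keratinocytes. They come from RefSeq (GRCm38.p6), are read 5′ to 3′ on the minus strand and end at the base before the GENCODE M21 gene. Capitals mark the AP-1 motif TGANTCA, where N is any base, and the TATA motif TATAAA. They span chr3:92485896-92486015 for Sprr1a, chr3:92438790-92438909 for Sprr1b, chr3:92573736-92573855 for Ivl, chr3:92083143-92083262 for Lor and chr3:92458721-92458840 for Sprr3.
Sprr1a: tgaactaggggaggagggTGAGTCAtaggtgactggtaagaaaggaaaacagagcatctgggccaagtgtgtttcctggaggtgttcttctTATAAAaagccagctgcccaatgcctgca
Sprr1b: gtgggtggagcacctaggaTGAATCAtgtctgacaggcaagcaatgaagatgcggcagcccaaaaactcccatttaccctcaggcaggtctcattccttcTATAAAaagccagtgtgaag
Ivl: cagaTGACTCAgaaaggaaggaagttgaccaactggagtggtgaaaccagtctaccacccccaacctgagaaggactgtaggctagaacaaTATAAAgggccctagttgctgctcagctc
Lor: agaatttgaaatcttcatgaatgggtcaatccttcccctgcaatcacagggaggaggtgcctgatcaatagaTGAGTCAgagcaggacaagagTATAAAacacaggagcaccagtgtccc
Sprr3: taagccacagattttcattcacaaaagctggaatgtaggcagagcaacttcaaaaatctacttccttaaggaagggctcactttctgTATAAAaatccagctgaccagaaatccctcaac

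Sprr1a and Sprr1b carry the same 2 kinds of match, AP-1 followed by TATA, although their levels part between gates. Sprr3 has no AP-1 match in this window. Of the 43 members with a RefSeq promoter, 16 (37.2%) held TGANTCA on either strand in the 250 bases before the start, against 6.75% of all 32851 promoters, and 20 (46.5%) held TATAAA, against 12.4%. The AP-1 match stood in 9 of 14 Sprr promoters, 0 of 20 Lce promoters and 7 of the other 9. The octamer ATTTGCAT stood in 7 members (16.3%), all of them Sprr genes, against 1.60% of all promoters. For the other motifs searched, the shares in members and in all promoters were 41.9% and 52.0% for CACCC (the core read by KLF factors), 100% and 93.4% for GGAA (ETS factors) and 11.6% and 9.56% for TTGCNNAA (CEBP factors). A match describes the letters only, and neighbouring members arose by duplication, so their promoters are not independent.

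Ivl followed Sprr1a in the Krt79/Krt17 gate. It was at 39.7 CPM (31.2 to 49.9) in adult Langerin-DTA, 42.1 CPM (33.9 to 51.8) in adult WT and 48.0 CPM (36.4 to 62.2) in young WT in the Krt79/Krt17 gate. In the Krt1/Krt10 gate it was at 14.9 (Langerin-DTA), 5.85 (adult WT) and 5.41 CPM (young WT) and in the Krt5/Krt14 gate at 2.94 (Langerin-DTA), 2.08 (adult WT) and 2.57 CPM (young WT). The gates did not overlap in any library, and no cell gave more than 10 of the Ivl UMIs of the Krt79/Krt17 gate.

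Lor encodes the main shell protein. In the Krt1/Krt10 gate it was at 69.2 CPM in adult Langerin-DTA, 6.58 CPM in adult WT and 4.48 CPM in young WT, seen in 37 (Langerin-DTA), 25 (adult WT) and 24 (young WT) cells. In adult Langerin-DTA 518 of its 615 UMIs came from 1 barcode, and without that barcode it was at 10.96 CPM. In the Krt79/Krt17 gate it was at 52.1 (Langerin-DTA), 7.96 (adult WT) and 3.37 CPM (young WT) and in the Krt5/Krt14 gate at 3.63 (Langerin-DTA), 2.88 (adult WT) and 2.12 CPM (young WT), against 0.520 (Langerin-DTA), 0.102 (adult WT) and 0.164 CPM (young WT) in Prox1 cells.

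The filaggrin relatives were seen in a handful of cells. Hrnr was at 68.5 CPM in adult Langerin-DTA (15 cells), 6.46 CPM in adult WT (5 cells) and 0.560 CPM in young WT (2 cells) in the Krt1/Krt10 gate. Flg2 was at 34.6 CPM in adult Langerin-DTA (7 cells), 4.75 CPM in adult WT (4 cells) and 0.747 CPM in young WT (3 cells) there. Flg had 127 UMIs in 5 cells of adult Langerin-DTA (14.3 CPM), none in adult WT, which allows up to 0.366 CPM, and 1 UMI in young WT. For Hrnr and Flg2 most UMIs of each adult library came from 1 cell: 423 of 609 and 274 of 307 in adult Langerin-DTA, and 48 of 53 and 35 of 39 in adult WT. Rptn, or repetin, was at 2.70 CPM in adult Langerin-DTA, 0 in adult WT and 0.187 CPM in young WT in the Krt1/Krt10 gate, and at 8.59 (Langerin-DTA), 0 (adult WT) and 4.21 CPM (young WT) in the Krt79/Krt17 gate. It had 0 UMIs in all 3 libraries in the Krt5/Krt14 gate.

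Tchh was spread at low level over more cells of the Krt5/Krt14 gate than any other member. In the Krt5/Krt14 gate it was at 22.0 CPM (20.3 to 23.9) in adult Langerin-DTA, 23.9 CPM (22.2 to 25.7) in adult WT and 19.9 CPM (17.9 to 22.1) in young WT, seen in 420 (Langerin-DTA), 483 (adult WT) and 243 (young WT) cells with at most 12 UMIs in a cell. In the Krt79/Krt17 gate it was at 25.8 (Langerin-DTA), 27.6 (adult WT) and 39.6 CPM (young WT), and in the Krt1/Krt10 gate it was lower, at 9.004 (Langerin-DTA), 6.09 (adult WT) and 13.8 CPM (young WT). Prox1 cells held 2.24 (Langerin-DTA), 1.74 (adult WT) and 1.04 CPM (young WT). The inner root sheath keratins Krt25, Krt27, Krt71 and Krt73 are listed with Tchh, Gata3 and Msx2 as markers of the sheath, and this list, led by Gata3, summed to 250 CPM in adult Langerin-DTA, 228 CPM in adult WT and 195 CPM in young WT in the Krt5/Krt14 gate and to 396 CPM in adult Langerin-DTA, 351 CPM in adult WT and 320 CPM in young WT in the Krt1/Krt10 gate. Gata3 alone made 213 (Langerin-DTA), 191 (adult WT) and 161 CPM (young WT) of the sum in the Krt5/Krt14 gate. The 4 sheath keratins were each at 0.0734 to 0.991 CPM in adult Langerin-DTA, 0.192 to 2.01 CPM in adult WT and 0 to 1.51 CPM in young WT there.

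Sprr2a3 set the adult libraries apart from the young one in the Krt5/Krt14 gate. It was at 12.9 CPM (11.6 to 14.3) in adult Langerin-DTA, 11.4 CPM (10.3 to 12.7) in adult WT and 0.279 CPM (0.0907 to 0.652) in young WT, so both adult libraries stood above the young one. It had a UMI in 69 (Langerin-DTA), 39 (adult WT) and 5 (young WT) Krt5/Krt14 cells, and 10 or more UMIs in 11 (Langerin-DTA), 9 (adult WT) and 0 (young WT) of them, with at most 37 (Langerin-DTA), 60 (adult WT) and 1 (young WT) UMIs in a cell. Of these cells, 0 in adult Langerin-DTA, 1 in adult WT and 0 in young WT also held Sprr1a. Krt1/Krt10 cells had it at 0.675 (Langerin-DTA), 11.7 (adult WT) and 0 CPM (young WT), and in adult WT 64 of those 96 UMIs were in 1 cell, which held 346 UMIs of Krt5 and Krt14 and 237 of Krt1 and Krt10. The difference between both gates was not called (log2 fold change -1.32, edgeR adjusted p = 0.178). Of the windows of 90 bases in the last 500 bases of the Sprr2a3 transcripts, 42.3% are shared with Sprr2a1 or Sprr2a2. All windows of Sprr2a1 and of Sprr2a2 are shared with another of these 3 genes, so counts within this trio are uncertain. Sprr2a1 had 7 and Sprr2a2 had 5 UMIs in the basal gate over the 3 libraries. Sprr2h and Lce3c were each carried by 1 barcode: all 58 Sprr2h UMIs and all 50 Lce3c UMIs of the Krt79/Krt17 gate were in the same cell of adult Langerin-DTA. Lce6a stayed between 0 and 1.69 CPM in every keratinocyte gate and library.

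To compare gates, UMIs were summed per library over cells in exactly 1 keratinocyte gate and tested with edgeR's quasi-likelihood test with the library as a block (3 libraries, Benjamini-Hochberg adjustment over 13161 genes). The same mice and library supply each gate. Of the 45 members 8 passed the filter on low counts. Of these, 6 rose in the Krt1/Krt10 gate over the Krt5/Krt14 gate and 1 fell, where 21.7% of all genes tested rose and 21.2% fell. No gene used for gating is a member. Sprr1b passed the filter on low counts only through the Krt1/Krt10 gate, where it is high. In the libraries of the Krt79/Krt17 and Krt5/Krt14 gates it was at 0 to 0.231 CPM. Flg2, Hrnr and Sprr1a passed the filter through the Krt1/Krt10 and Krt79/Krt17 gates and would not have passed on the Krt5/Krt14 gate. There Flg2 and Hrnr were at 0.0576 to 0.570 CPM and Sprr1a at 0.959 to 1.94 CPM. The calls of Sprr1b, Flg2 and Hrnr were therefore not independent of the filter. Nor were the Sprr1a calls over the Krt5/Krt14 gate, or the part of these members in the counts.

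Sprr1b rose by a log2 fold change of 7.89 ± 0.48 (SE; edgeR adjusted p = 2.32e-05) in the Krt1/Krt10 gate over the Krt5/Krt14 gate, with 31.3 (Langerin-DTA), 21.5 (adult WT) and 13.3 CPM (young WT) against 0.0380 (Langerin-DTA), 0.0661 (adult WT) and 0.231 CPM (young WT). Flg2 rose by 7.50 ± 0.60, Hrnr by 6.72 ± 0.45, Sprr1a by 5.10 ± 0.58, Lor by 2.62 ± 0.59 and Ivl by 2.23 ± 0.49. For Lor the levels were 65.7 (Langerin-DTA), 5.98 (adult WT) and 4.37 CPM (young WT) against 3.68 (Langerin-DTA), 2.81 (adult WT) and 2.19 CPM (young WT), higher in the Krt1/Krt10 gate in 3 of 3 libraries. Tchh fell by 1.02 ± 0.24 (edgeR adjusted p = 0.00754), with 8.82 (Langerin-DTA), 6.22 (adult WT) and 13.1 CPM (young WT) against 21.7 (Langerin-DTA), 23.4 (adult WT) and 18.7 CPM (young WT). That call ended without adult Langerin-DTA (log2 fold change -0.98, edgeR adjusted p = 0.0917) and without adult WT (-0.71, edgeR adjusted p = 0.0561).

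Of the 8 members that passed, 3 rose in the Krt79/Krt17 gate over the Krt5/Krt14 gate and 0 fell, against 16.9% and 18% of all genes; 5 of the 8 had an unadjusted p under 0.05. Sprr1a rose most, by 9.67 ± 0.60 (edgeR adjusted p = 4.88e-06), with 576 (Langerin-DTA), 1589 (adult WT) and 1050 CPM (young WT) against 1.94 (Langerin-DTA), 0.959 (adult WT) and 1.10 CPM (young WT). Ivl rose by 4.93 ± 0.53 (edgeR adjusted p = 0.000127), with 30.1 (Langerin-DTA), 72.1 (adult WT) and 53.6 CPM (young WT) against 1.94 (Langerin-DTA), 1.45 (adult WT) and 1.79 CPM (young WT). Lor rose by 2.61 ± 0.82 (edgeR adjusted p = 0.0350), with 66.5 (Langerin-DTA), 6.46 (adult WT) and 5.54 CPM (young WT) against 3.68 (Langerin-DTA), 2.81 (adult WT) and 2.19 CPM (young WT). The Lor call ended without adult Langerin-DTA (1.24, edgeR adjusted p = 0.138), without young WT (3.10, edgeR adjusted p = 0.0520), without the block (3.18, edgeR adjusted p = 0.0905) and without the top barcode of each gate (1.07, edgeR adjusted p = 0.0513).

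Set against the Krt1/Krt10 gate, 2 of the 8 rose in the Krt79/Krt17 gate and 3 fell, against 15.6% and 17% of all genes. Sprr1a rose by 4.57 ± 0.47 (edgeR adjusted p = 8.98e-05) and Ivl by 2.69 ± 0.51 (edgeR adjusted p = 0.00333), each higher in 3 of 3 libraries. Sprr1b fell: it had 0 UMIs in all 3 libraries of the Krt79/Krt17 gate, against 23.4 CPM pooled over the Krt1/Krt10 gate, which makes it at least 17.7-fold lower by a limit of 3 UMIs over the pooled gate. Flg2 fell by 4.19 ± 0.84 and Hrnr by 3.80 ± 0.63, on 2.51 and 6.27 CPM in adult Langerin-DTA and 0 in both WT libraries of the Krt79/Krt17 gate. These 0 UMIs allow up to 3.23 CPM in adult WT and 5.54 CPM in young WT. In the Krt1/Krt10 gate Flg2 was at 4.85 (adult WT) and 0.761 CPM (young WT), and Hrnr at 6.60 (adult WT) and 0.570 CPM (young WT). Young WT thus cannot show a fall. In adult Langerin-DTA 1 cell held 274 of 307 Flg2 and 423 of 588 Hrnr UMIs of that gate. The Ivl call ended without adult WT (2.16, edgeR adjusted p = 0.0603), and the Flg2 and Hrnr calls ended without the block (edgeR adjusted p = 0.132 and 0.195). With cells of more than 1 gate kept, the Sprr1b difference turned (log2 fold change 0.61, edgeR adjusted p = 0.622), since the barcode with 412 Sprr1b UMIs lies in both the Krt79/Krt17 and the Krt5/Krt14 gate.

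**Figure D2:**
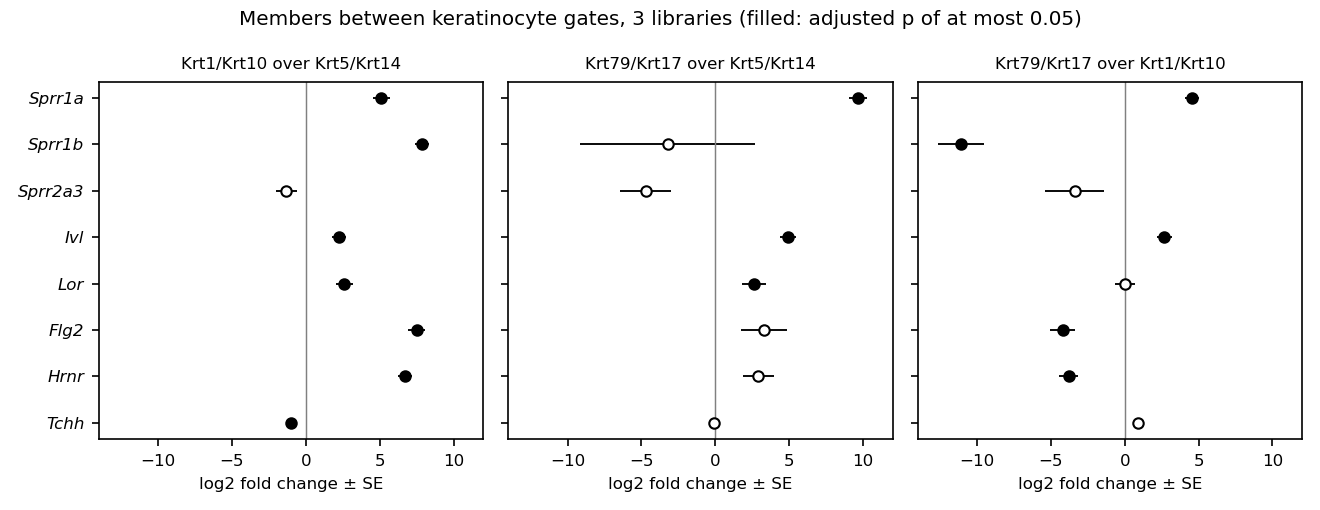
Log2 fold change ± SE of the 8 members tested between keratinocyte gates, fitted over 3 libraries, with filled points at an adjusted p of at most 0.05. Sprr1a lies right of 0 in all panels (5.10, 9.67 and 4.57), whereas Sprr1b changes side; its fitted values against the Krt79/Krt17 gate rest on 0 UMIs there and give no size.

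Genes that work with the envelope were read from 8 lists. In the Krt1/Krt10 gate over the Krt5/Krt14 gate 17 of 18 barrier lipid genes rose and 0 fell (median log2 fold change 2.93), 15 of 15 genes of the desmosomes and the cornified scaffold rose (median 2.57), and 11 of 17 cross-linking and protease genes rose and 3 fell, where the median of all genes tested was -0.01, 21.7% of them rose and 21.2% fell. Elovl4, which makes the very long fatty acids of the barrier, rose by 7.31; Dsc1, a desmosomal cadherin, rose by 5.94; and Zfp750, a factor of terminal differentiation, rose by 5.65. Of 20 differentiation regulators 13 rose and 2 fell, of 13 other genes of the epidermal differentiation complex 6 rose and 6 fell, of 11 stress keratins and alarmins 7 rose and 1 fell, of 8 immediate early genes 2 rose, and all 6 cell cycle genes fell. Cenpf fell by 6.07 and Cdk1 fell by 5.23.

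The Krt79/Krt17 gate over the Krt5/Krt14 gate gave fewer such calls: 9 of 18 barrier lipid genes rose, 10 of 15 scaffold genes rose and 1 fell, and 9 of 17 cross-linking and protease genes rose and 3 fell, against 16.9% of all genes rising and 18% falling. The median log2 fold change was 2.36 for barrier lipid, 0.72 for scaffold and 1.36 for cross-linking and protease genes. For all genes it was -0.04. The Krt79/Krt17 cells held 797466 (Langerin-DTA), 928994 (adult WT) and 541189 UMIs (young WT). The Krt1/Krt10 cells held 8727712 (Langerin-DTA), 8033053 (adult WT) and 5259034 (young WT). The part of this depth in the number of calls was not tested. Over the Krt1/Krt10 gate the Krt79/Krt17 gate gave 1 of 18 lipid genes higher and 12 lower, and 3 of 15 scaffold genes higher and 10 lower, against 15.6% and 17% of all genes. Of the 17 cross-linking and protease genes 6 were higher, 5 lower and 6 not called. Some partners of the envelope stood with Sprr1a and Ivl: the transglutaminase Tgm1 was at 23.8 CPM in adult Langerin-DTA, 29.1 CPM in adult WT and 25.9 CPM in young WT in the Krt79/Krt17 gate, against 4.58 (Langerin-DTA), 1.87 (adult WT) and 1.14 CPM (young WT) in the Krt1/Krt10 gate (log2 fold change 3.20, edgeR adjusted p = 0.000820). The protease Klk7, which cuts the links between shed cells, was at 194 (Langerin-DTA), 193 (adult WT) and 218 CPM (young WT) against 45.6 (Langerin-DTA), 3.24 (adult WT) and 0.190 CPM (young WT) (log2 fold change 3.90, edgeR adjusted p = 0.00450). Others were absent or nearly so: Tgm3 fell by 6.67 and Krt2, a keratin of the outer layers, by 10.6 in the Krt79/Krt17 gate over the Krt1/Krt10 gate. Of the 13 other genes of the complex tested, 2 rose and 3 fell there, close to the shares over all genes, and of the 6 cell cycle genes 2 rose and 0 fell.

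Member RNA sat in few cells. Barcodes with 10 or more member UMIs numbered 54 of 12941 in adult Langerin-DTA, 59 of 12621 in adult WT and 19 of 12399 in young WT, and held 71.5% (Langerin-DTA), 93.9% (adult WT) and 51.9% (young WT) of all member UMIs of their library. Sprr1a led in 28 (Langerin-DTA), 41 (adult WT) and 14 (young WT) of them, Sprr2a3 in 12 (Langerin-DTA), 12 (adult WT) and 0 (young WT), and Sprr1b in 4 (Langerin-DTA), 4 (adult WT) and 2 (young WT). The Krt79/Krt17 gate held 21 (Langerin-DTA), 35 (adult WT) and 11 (young WT) such barcodes, and Sprr1a led in 17 (Langerin-DTA), 34 (adult WT) and 11 (young WT). The barcode with most member UMIs in adult Langerin-DTA lay in the Krt1/Krt10 gate, with 1219 member UMIs of 30760: 518 of Lor, 423 of Hrnr and 274 of Flg2, and none of Sprr1a or Sprr1b. The next lay in the Krt79/Krt17 and Krt5/Krt14 gates, with 850 member UMIs of 11137: 412 of Sprr1b, 328 of Sprr1a, 58 of Sprr2h and 50 of Lce3c, beside 161 UMIs of the stress keratin Krt6a and 0 of Krt79.

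**Figure D3:**
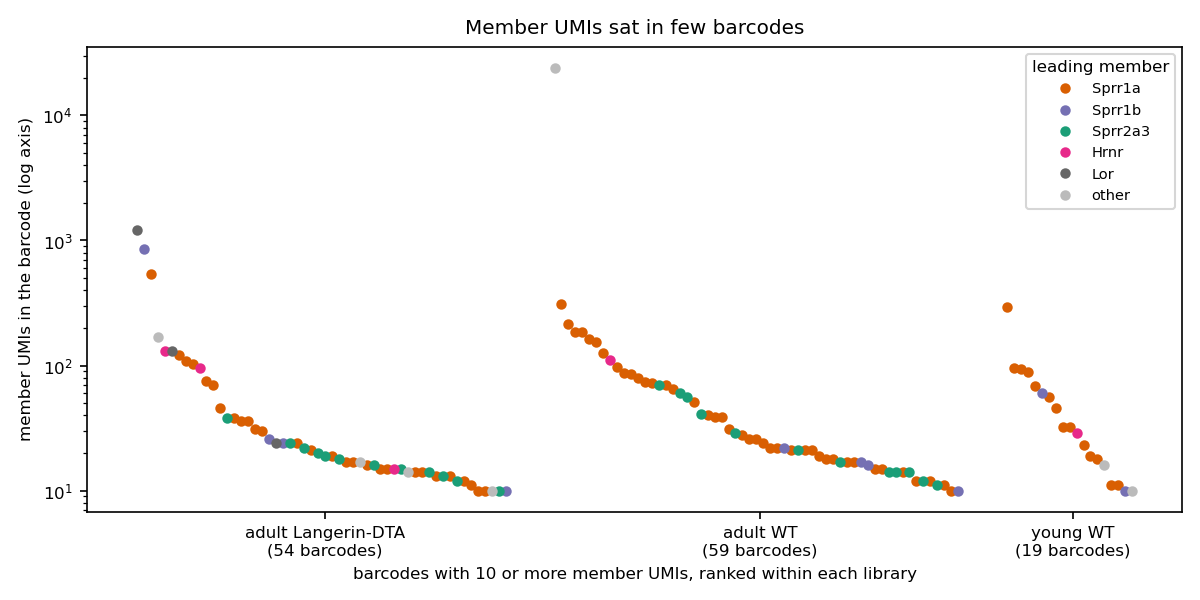
Member UMIs per barcode (log axis) in every barcode with 10 or more, ranked within each library and coloured by the leading member. Adult Langerin-DTA has 54 such barcodes, adult WT 59 and young WT 19; the adult WT barcode with 23900 member UMIs stands above all others.

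The highest barcode of the series lay in adult WT, outside every keratinocyte gate. Of its 50028 UMIs 23900 (47.8%) were of members, 83.0% of all member UMIs of that library. All 14 Lce1 genes were present, with 19998 UMIs together (39.97% of the barcode), led by Lce1m with 5504, Lce1l with 2293 and Lce1a1 with 2279 UMIs; Lor had 3367 and Flg2 314 UMIs. Crct1 (1481 UMIs) and Kprp (257 UMIs), which lie among the members on chromosome 3, stood beside them, as did the protease Asprv1 (470 UMIs), the factor Klf4 (126 UMIs), the keratin Krt80 (77 UMIs) and Klk7 (51 UMIs). It held 0 UMIs of Krt1 and Krt10, 1 of Krt5 and Krt14, 0 of Ptprc, Pecam1 and Col1a1 together, and 0.144% mitochondrial UMIs. No other library holds the same barcode. Among the other kept barcodes an Lce1 UMI was seen in 13 of adult Langerin-DTA (0.1005%), 81 of adult WT (0.642%) and 7 of young WT (0.0565%), with at most 19 (Langerin-DTA), 3 (adult WT) and 13 (young WT) UMIs in a barcode. The share was highest in the library with the barcode; whether free RNA of it accounts for those UMIs was not tested.

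**Figure D4:**
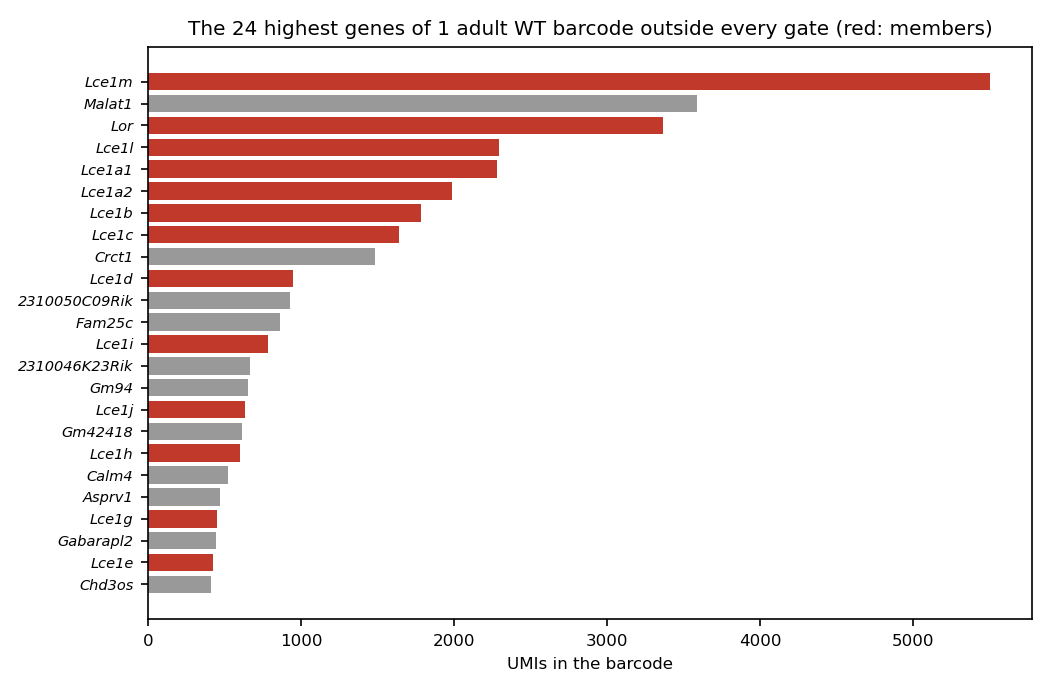
The 24 highest genes of the adult WT barcode outside the keratinocyte gates, as UMIs in the barcode, with members in red and other genes in grey. Lce1m leads with 5504 UMIs and Lor has 3367.

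Langerin-DTA mice were set against WT mice of the same age with 1 library each. No test of the difference between conditions is possible with these, the ratios below compare libraries with counting error alone, and genotype and library cannot be told apart. A member was compared with 50 or more UMIs over both libraries, and its exact 95% interval is conditional on that sum. In the Krt1/Krt10 gate 5 of 9 members compared were at least 1.5-fold higher in adult Langerin-DTA than in adult WT and 1 was lower, where 2.79% and 3.27% of all genes compared were. Lor was 10.5-fold higher (log2 ratio 3.39, 2.99 to 3.82), Hrnr 10.6-fold, Flg2 7.27-fold and Ivl 2.54-fold, and Flg at least 39.1-fold by a limit of 3 UMIs in adult WT. Sprr2a3 was lower, with 6 against 96 UMIs (log2 ratio -4.11, -5.60 to -2.94). Summed over members, the log2 ratio was 1.47 (1.36 to 1.58).

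Much of that gap was 1 cell. Without the barcode with most member UMIs in each library, Lor was 1.66-fold, Hrnr 3.24-fold and Ivl 2.75-fold higher in adult Langerin-DTA, Flg2 was at 0.781 of the adult WT level, and the summed log2 ratio was 0.92. Without the 1% of cells with most member UMIs it was 0.10. The Lor and Flg2 ratios thus did not keep their size. The barcode left out of adult Langerin-DTA held almost only Lor, Hrnr and Flg2 among members, so leaving it out could hardly move Ivl. Over cells in exactly 1 gate, the top cell for Ivl held 22 of 111 UMIs in adult Langerin-DTA and 4 of 46 in adult WT. Whether the Ivl ratio rests on few cells was not tested. Of the Flg UMIs in adult Langerin-DTA, 99 of 127 lay in 1 cell, which also passes the Krt79/Krt17 gate. Over cells in exactly 1 gate Flg had 28 UMIs, at least 8.59-fold higher. Of these 28 UMIs, 25 again lay in 1 cell, and their number is below the minimum set above for comparing a member. For Sprr2a3, 64 of the 96 adult WT UMIs lay in the 1 cell with more Krt5 and Krt14 than Krt1 and Krt10, and without the 1% of cells with most member UMIs it had 6 against 32 UMIs (log2 ratio -2.52).

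Among cells of the Krt79/Krt17 gate 5 of 8 members were higher in adult Langerin-DTA than in adult WT by 1.5-fold or more and 1 was lower, where 5.61% and 4.13% of all genes were. Sprr1a was lower, at 601 against 1030 CPM (log2 ratio -0.78, -0.88 to -0.67), and without the top barcode of each library at 0.477 of the adult WT level. Sprr1b was 25.4-fold higher with that barcode and at 0.482 of the adult WT level without it. Flg (at least 51.3-fold), Sprr2h (at least 22.2-fold), Lce3c (at least 19.1-fold) and Lor (6.55-fold) were the others. Few cells carried these: the 134 Flg UMIs lay in 2 cells, with 99 in the cell counted above, Sprr2h and Lce3c lay in the 1 barcode without Krt79, and 48 of 97 Lor UMIs lay in 1 cell. Ivl was at 39.7 against 42.1 CPM (log2 ratio -0.08, -0.55 to 0.38) and Tchh at 25.8 against 27.6 CPM (-0.10, -0.68 to 0.48). The summed log2 ratio was -0.04 (-0.13 to 0.04). Cells in exactly 1 keratinocyte gate, a choice added after the data were seen, gave other values: with 58 against 60 cells, 1 member was higher (Lor, with 48 of its 53 UMIs in 1 cell) and 2 were lower. Sprr1a was then at 576 against 1589 CPM (log2 ratio -1.46, -1.62 to -1.31), Ivl at 30.1 against 72.1 CPM (log2 ratio -1.26, -1.998 to -0.57) and the sum at -1.19 (-1.32 to -1.05).

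In the Krt5/Krt14 gate 3 of 8 members were higher and 0 lower, against 4.38% and 2.32% of all genes. All 3 (Sprr1b, Sprr2h and Lce3c) came from the barcode with 850 member UMIs, which also passes the Krt79/Krt17 gate; without it Sprr1b had 1 UMI against 21. Sprr2a3 was at 12.9 against 11.4 CPM (log2 ratio 0.18, -0.04 to 0.39), Tchh at 22.0 against 23.9 CPM (-0.12, -0.27 to 0.04) and Sprr1a at 25.1 against 21.7 CPM (0.21, 0.06 to 0.37). Over cells of this gate alone 1 member was higher: Sprr1a, at 1.94 against 0.959 CPM (log2 ratio 1.01, 0.33 to 1.72) in 17 against 14 cells.

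**Figure D5:**
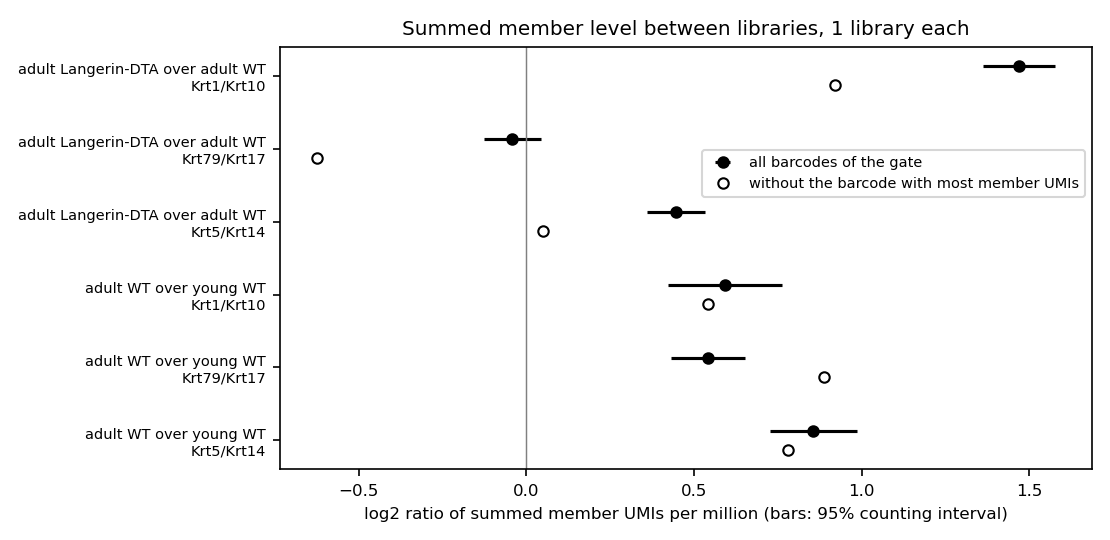
Log2 ratio of the summed member level between libraries, by comparison and gate. Filled points with 95% counting intervals use all barcodes, open points leave out the barcode with most member UMIs of each library; the adult Langerin-DTA over adult WT ratio in the Krt1/Krt10 gate moves between 1.47 and 0.92.

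The young WT library asks how the genes stood at 4 weeks. Adult WT shares its library with the comparison above, and age and library cannot be told apart. In the Krt5/Krt14 gate 2 of 5 members were higher in adult WT than in young WT by 1.5-fold or more and 0 lower, against 6.15% and 8.41% of all genes, whose median log2 ratio was -0.11. Sprr2a3 was 41.0-fold higher, with 358 against 5 UMIs (log2 ratio 5.36, 4.12 to 6.99), by 34.8-fold in cells called male from their Xist and Y-linked UMIs and by 46.9-fold in cells called female. Without the 1% of cells with most member UMIs it was 8.63-fold higher, with 75 against 5 UMIs. Sprr1a was 2.44-fold higher (log2 ratio 1.29, 1.04 to 1.55), but over cells of this gate alone it was at 0.959 against 1.10 CPM (log2 ratio -0.19, -1.08 to 0.72), where Sprr2a3 was still 38.8-fold higher. Tchh was at 23.9 against 19.9 CPM (0.26, 0.08 to 0.45).

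Above the basal layer, in the Krt1/Krt10 gate, 3 of 7 members were higher in adult WT than in young WT and 1 lower, against 6.27% and 5.96% of all genes. Hrnr was 11.5-fold higher (1.09-fold without the 1% of cells with most member UMIs), Sprr2a3 at least 20.9-fold, with 96 against 0 UMIs of which 64 were in 1 cell, and Sprr1b 1.61-fold (log2 ratio 0.69, 0.28 to 1.11). Tchh was lower, at 6.09 against 13.8 CPM (log2 ratio -1.18, -1.73 to -0.64). Over cells in exactly 1 gate 5 members were higher, Sprr1a (39.5 against 16.4 CPM) and Ivl (5.73 against 3.04 CPM) being added. In the Krt79/Krt17 gate 1 of 3 members compared was higher and 0 lower, against 7.34% and 10.1% of all genes: Sprr1a was at 1030 against 677 CPM (log2 ratio 0.61, 0.49 to 0.72). Ivl was at 42.1 against 48.0 CPM (-0.19, -0.68 to 0.32) and Tchh at 27.6 against 39.6 CPM (-0.52, -1.10 to 0.06).

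Within the Krt1/Krt10 gate the summed level was read by the share of Krt1 and Krt10 in a cell's UMIs, at 0.5 to 1%, 1 to 2%, 2 to 4% and over 4%. It was 986, 47.3, 277 and 1539 CPM in adult Langerin-DTA, 103, 87.0, 150 and 170 CPM in adult WT and 80.5, 68.9, 52.1 and 229 CPM in young WT. The last bin held 9 (Langerin-DTA), 4 (adult WT) and 18 (young WT) cells. Without the top cell of each bin it was 80.0, 41.4, 142 and 331 CPM in adult Langerin-DTA. Sprr1b was at 0, 6.67, 56.4 and 259 CPM across these bins in adult Langerin-DTA, at 3.21, 8.92, 43.3 and 85.2 CPM in adult WT and at 0, 3.34, 4.45 and 133 CPM in young WT, so it climbed with the bins in each library. By quartiles it did so in adult Langerin-DTA, at 0, 5.12, 24.6 and 80.7 CPM, but not in adult WT, at 6.27, 3.52, 16.97 and 64.6 CPM, nor in young WT, at 0, 5.49, 0 and 27.8 CPM. The highest bin stayed the highest in each, and 45 of the 54 UMIs of the last fixed bin of young WT lay in 1 cell.

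Prox1 cells in no keratinocyte gate numbered 2314 in adult Langerin-DTA, 1528 in adult WT and 4029 in young WT, and held 3.93 (Langerin-DTA), 1.42 (adult WT) and 0.841 CPM (young WT) of members. Keratin RNA, which these cells should lack, was at 71.6 (Langerin-DTA), 62.4 (adult WT) and 38.3 CPM (young WT) there. Members stood at 54.9 (Langerin-DTA), 22.8 (adult WT) and 22.0 (young WT) UMIs per 1000 UMIs of the keratins, against 7.17 (Langerin-DTA), 5.47 (adult WT) and 2.93 (young WT) in the cells of the keratinocyte gates. Sprr1a was seen in 11 of these cells in adult Langerin-DTA and 0 in both WT libraries. In the Prox1 cells as a whole 93 of the 126 Sprr1a UMIs of adult Langerin-DTA, and all 90 of young WT, came from 1 barcode each.

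Sprr3, a proline-rich protein best known from the lining of the mouth and oesophagus, was seen in Prox1 cells and in no keratinocyte gate. It had 23 UMIs in 19 of the 2314 cells of adult Langerin-DTA (0.821%, exact binomial interval 0.495% to 1.28%), 0 in adult WT, which allows up to 0.196% of cells with a UMI, and 0 in young WT, which allows up to 0.0745%. These limits speak of detection only, at median depths of 9353 UMIs a cell in adult Langerin-DTA, 5116 in adult WT and 7956 in young WT. In the cells of the keratinocyte gates of adult Langerin-DTA 0 of 2995 had a UMI, which allows up to 0.1002%. The 19 cells held a median of 13400 UMIs and 9 Prox1 UMIs, against 9353 and 6 in all 2314; 14 had Lyve1, 13 Pdpn and 11 Flt4, 3 had Krt5 or Krt14, and 0 had Sprr1a. Among all 2314 cells 1379 had Lyve1, 1705 Pdpn, 1470 Flt4, 243 Krt5 or Krt14 and 11 Sprr1a.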

How the data were processed

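RNA was measured with 10x Genomics 3' single-cell libraries. The authors deposited counts of UMIs per gene and called barcode, not normalized; they were made with Cell Ranger 8.0.1 per the file headers (8.01 in the submitters' processing notes) on GRCm38. Whether intronic reads were counted, which annotation was used, how reads shared by near-identical copies were assigned and whether free RNA was removed is not given in the sources used here. Libraries held 124590777 (adult Langerin-DTA), 128595813 (adult WT) and 137441575 UMIs (young WT). Between libraries 39 barcodes were shared by adult Langerin-DTA and adult WT, 50 by adult Langerin-DTA and young WT, and 47 by adult WT and young WT. Doublets were not removed.

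The members, gates and gene lists were chosen with earlier results of these data known. Members with 20 or more UMIs in a keratinocyte gate were named one by one. Gates were compared with edgeR 4.0.16 in R 4.3.3 (quasi-likelihood F test, TMM scaling, library as block, filter on low counts, called at an adjusted p of 0.05), DESeq2 1.42.0 being an alternative. A block is warranted because the gates of 1 library come from the same mice. The test was checked on simulated counts with 1 fixed dispersion and no library effect. That check does not cover members whose UMIs lie mostly in 1 barcode. With 1 library a condition there is no test between conditions: ratios carry exact conditional 95% intervals and limits for 0 stand for 3 UMIs, both for counting error only. Fewer cells of a type and less RNA per cell cannot be told apart in a summed level. Motifs were searched on both strands of RefSeq promoters (GRCm38.p6), 43 of 45 members matched. Python 3.11.15, numpy 2.4.6, scipy 1.17.1, pandas 2.3.3 and matplotlib 3.10.9 were used.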

Additional observations from a re-analysis of the deposited data

Results flagged for a closer look

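A single adult WT barcode outside every keratinocyte gate held 23900 member UMIs, a signal in data that no comparison between gates or conditions uses; the level in Prox1 cells of that library was 3.06 CPM of members in all. Its source was not tested.

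Sprr3 had 23 UMIs in Prox1 cells of adult Langerin-DTA that pass no keratinocyte gate and 0 in the same cells of adult WT and young WT. The difference between the libraries was not tested, since each condition has 1 library.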

How the results depend on the processing

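Under other settings 245 values for single members kept their direction and side of the threshold, 10 lost their call, 12 gained one and 9 turned; of counts, sums and shares 234 values stayed close to those reported, 89 moved and 7 turned. Between gates, with the library as block, 1 member fell in Krt1/Krt10 over Krt5/Krt14 (0 to 1 leaving out a library). In Krt79/Krt17 over Krt5/Krt14, 3 rose and 0 fell, against 7 and 1 with no filter on low counts, 5 and 1 with DESeq2, and 6 rising with cells of more than 1 gate kept. In Krt79/Krt17 over Krt1/Krt10, 2 rose (5 with no filter, 1 to 4 leaving out a library) and 3 fell (1 without the replicate block, 1 with cells of more than 1 gate kept, 1 to 3 leaving out a library). No other count of calls moved by over 1.5 times without the block. The following log2 fold changes turned sign. Lor in Krt79/Krt17 over Krt1/Krt10 (-0.00) was 0.051 with DESeq2 size factors, 0.25 with library totals, 0.13 with all barcodes and 0.20 without cells of other lineages. Sprr1b was 0.61 over Krt1/Krt10, and 1.31 (DESeq2) and 3.83 over Krt5/Krt14 with cells of more than 1 gate kept, against -3.21. Sprr2a3 in Krt1/Krt10 over Krt5/Krt14 (-1.32) was -1.07 to 0.11 leaving out a library, turning without adult Langerin-DTA and giving no value without adult WT, and Tchh in Krt79/Krt17 over Krt5/Krt14 (-0.10) was 0.44 with cells of more than 1 gate kept.

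Summed log2 ratios of adult Langerin-DTA over adult WT moved as follows. In Krt1/Krt10 (1.47) it was 0.999 with cells weighted equally, 2.52 in male-called and 0.92 in female-called cells, 0.75 with gate thresholds multiplied by 2, 0.10 without the 1% of cells with most member UMIs and 0.92 without the top barcode. In Krt79/Krt17 (-0.04) it was 0.093 without cells of other lineages, -0.32 in male-called and -1.35 in female-called cells, 0.33 with thresholds multiplied by 2, -0.68 without the 1%, -0.62 without the top barcode and -1.19 over cells in exactly 1 gate. In Krt5/Krt14 (0.45) it was 0.65 with equal weights, 0.19 in male-called and -0.59 in female-called cells, 0.83 with thresholds multiplied by 2, 0.11 without the 1%, 0.049 without the top barcode and 0.096 over cells in exactly 1 gate. For adult WT over young WT, Krt1/Krt10 (0.59) gave -0.15 in male-called and 1.03 in female-called cells and 0.95 over cells in exactly 1 gate. Krt79/Krt17 (0.54) gave 0.80 with equal weights, 1.33 in male-called and -0.052 in female-called cells, 0.74 without the 1% and 0.89 without the top barcode. Krt5/Krt14 (0.86) gave 0.62 with equal weights, 0.53 in male-called and 1.23 in female-called cells, 0.44 without the 1% and 0.69 over cells in exactly 1 gate. The cause of these moves was not tested.

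Counts of members past 1.5-fold moved too. For adult Langerin-DTA over adult WT in Krt1/Krt10, 5 higher became 3 with thresholds multiplied by 2 and 2 without the 1%, and 1 lower became 0 in male-called cells, 3 in female-called cells, 0 with thresholds multiplied by 2 and 0 without the 1%. In Krt79/Krt17, 5 higher became 2 in male-called and 1 in female-called cells, 1 without the 1%, 2 without the top barcode and 1 over cells in exactly 1 gate, and 1 lower became 2 in female-called cells and over cells in exactly 1 gate, 0 with thresholds multiplied by 2, 2 with a minimum of 20 UMIs and 0 with a fold of 2. In Krt5/Krt14, 3 higher became 1 in female-called cells and over cells in exactly 1 gate and 0 without the top barcode, and 0 lower became 1 in female-called cells. For adult WT over young WT in Krt1/Krt10, 3 higher became 5 without cells of other lineages, 1 in male-called cells and 5 with the Prox1 level subtracted and over cells in exactly 1 gate, and 1 lower became 0 in female-called cells. In Krt79/Krt17, 1 higher became 0 without cells of other lineages, 0 in female-called cells, 3 with a minimum of 20 UMIs and 0 with a fold of 2, and 0 lower became 1 without cells of other lineages, with equal weights, in female-called cells and with thresholds multiplied by 2. In Krt5/Krt14, 2 higher became 1 over cells in exactly 1 gate.

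Thinned to 2000 UMIs a cell, the shares with a member UMI were 9.80% (adult Langerin-DTA), 11.1% (adult WT) and 7.94% (young WT) in Krt1/Krt10, 26.1% (adult Langerin-DTA), 38.0% (adult WT) and 25.6% (young WT) in Krt79/Krt17, 8.35% (adult Langerin-DTA), 6.73% (adult WT) and 4.93% (young WT) in Krt5/Krt14 and 0.734% (adult Langerin-DTA), 0.681% (adult WT) and 0.202% (young WT) in Prox1 cells. The highest over the lowest bin of Krt1 and Krt10 gave a log2 ratio of 0.64 in adult Langerin-DTA (-0.79 by quartiles, 2.05 without the top barcode of each bin) and 1.51 in young WT (-0.018 by quartiles, 0.84 without the top barcode). The settings without a top barcode, with cells in exactly 1 gate for the libraries compared, and Prox1 cells in no keratinocyte gate, were added after the data were seen. With 1 library a condition and most member UMIs in few cells, the intervals leave out the spread between cells and mice.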
